A study of Mus musculus with 4 samples.

Results

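Group 2 innate lymphoid cells (ILC2) were 66 of the 44835 cells kept from 4 single-cell RNA libraries of hypoxic mouse lungs. A cell was called an ILC2 when it had UMIs (unique molecular identifiers, 1 per captured transcript) of at least 2 of the 5 genes Il1rl1, Gata3, Il5, Il13 and Arg1 and at least 1 UMI of the pan-leukocyte gene Ptprc. It also had to lack UMIs of Cd3d, Cd3e, Cd3g, Cd79a, C1qa, Csf3r and Col1a2 and to hold no more than 1 UMI of the endothelial genes Cdh5 and Cldn5 together. The cells were thus selected on the measured UMIs of these genes, which are described below and not tested. The 2 Vegfr2Y949F libraries gave 9 ILC2 (set A) and 15 ILC2 (set B), and the 2 WT libraries gave 18 (set A) and 24 (set B).

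The mice of both genotypes were C57BL/6J, were 6-8 weeks old and had spent 6 weeks in hypoxia, so no library of normoxic lung was compared. The name Vegfr2Y949F gives a change in Vegfr2, the receptor for vascular endothelial growth factor that Kdr encodes. Each library pooled digested lung cells of 2 mice, with the meaning of the set letters A and B not given. The p-values between genotypes therefore measure the spread between 2 pools of a genotype, not between single mice. Those between cell types measure how the difference within a library varied over the 4 libraries. Kdr itself was almost absent from ILC2, with 0 UMIs in both Vegfr2Y949F libraries and 1 UMI in all WT ILC2. In the remaining kept cells of each library Kdr stood at 328 and 271 UMIs per 1000000 of the summed UMIs (CPM) in Vegfr2Y949F and at 349 and 231 CPM in WT.

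ILC2 are lymphocytes without rearranged antigen receptors that live in tissues such as the lung. They respond to epithelial and stromal alarm signals, among them interleukin 33, whose receptor Il1rl1 encodes, and their development and function depend on the transcription factors Gata3 and Rora. Activated ILC2 release interleukin 5, which sustains eosinophils, interleukin 13, which acts on epithelium and macrophages, and amphiregulin, a growth factor in tissue repair.

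The kept libraries held 10113 to 12441 cells with a median of 4536 to 5742 UMIs per cell. ILC2 had a median of 3321 UMIs in Vegfr2Y949F A and 5078 in Vegfr2Y949F B, against 3801 in WT A and 4054.5 in WT B. Summed over a library, ILC2 gave 29687 and 76883 UMIs in Vegfr2Y949F and 62374 and 92671 UMIs in WT, so the shallowest sum was that of Vegfr2Y949F A. No doublet caller was run, and the excluded lineage genes of the rule took its place. A total of 317 barcode sequences occurred in more than 1 library, 1 of them that of an ILC2, and no barcode was shared between ILC2 of different libraries. The WT A library stood apart in its lymphocytes, with 41 T cells and 2 natural killer (NK) cells, against 155 to 478 T cells and 23 to 41 NK cells in the other libraries.

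The label was checked against genes outside the rule. Rora was detected in 63 and the interleukin 7 receptor gene Il7r in 62 of the 66 ILC2. The interleukin 2 receptor gene Il2ra was detected in 39, the costimulatory gene Icos in 34 and Thy1 in 29. Other markers of lung ILC2 were sparse. Il17rb, which encodes the interleukin 25 receptor, was found in 11 cells, Klrg1 in 9 and the neuromedin U receptor gene Nmur1 in 1, and no cell held both Il17rb and Klrg1. Of the T cell markers, Trbc1, Trbc2, Lat and Trac had UMIs in 37, 26, 21 and 3 cells, whereas Cd4, Cd8a, Cd8b1, Cd5 and Cd6 were at 0, as Cd3d, Cd3e and Cd3g had to be. Of the 9 NK markers 7 were at 0, and Gzmb and Prf1 had UMIs in 1 cell each. Of the regulatory T cell markers Foxp3 and Ikzf4 were at 0, whereas Ikzf2 had UMIs in 16 cells and Ctla4 in 1. Of the ILC3 markers Il23r was at 0 and Il17a had UMIs in 1 cell.

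All 66 ILC2 also grouped together when 6388 Ptprc-positive cells were clustered without the genes of the rule. They made up most of 1 of 26 clusters, which held 92 cells, and Rora, Ctla2a, Fosb, Nrip1 and Il7r were among its leading genes. Of the 26 other cells in that cluster, 9 had 2 or more of the 5 genes but also a UMI of an excluded gene, most often Cd3g (6 cells). A further 15 had 1 of the 5 genes and 2 had none. The cluster held 10 and 26 cells in the Vegfr2Y949F libraries and 24 and 32 cells in the WT libraries.

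At the threshold of the rule, 32 ILC2 had exactly 2 of the 5 genes, and 93.8% of them had Rora and 96.9% Il7r. Just outside it, 71 cells met the rest of the rule with exactly 1 of the genes, and 36.6% of them had Rora, 39.4% Il7r and 23.9% the NK gene Nkg7, which no ILC2 had. The most frequent combination was Il1rl1 with Gata3 alone, in 21 cells. Il1rl1 and Gata3 together with Il5 followed in 16 cells, and together with Arg1 in 9. Il1rl1 was detected in 61 ILC2, Gata3 in 59, Il5 in 30, Arg1 in 21 and Il13 in 4. The ILC2 with Il5 were deeper, with a median of 4782.5 UMIs, than those without it, with 3467.5 UMIs.

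Individual ILC2 went against their neighbours. A single cell of Vegfr2Y949F B held 4667 haemoglobin UMIs, 52.8% of its 8847 UMIs, while the ILC2 of the other 3 libraries held 3, 2 and 2 haemoglobin UMIs in all (Vegfr2Y949F A, WT A and WT B). A single cell of WT B, which met the rule through 1 UMI of Il1rl1 and 6 of Il13, held all 47 Gzmb UMIs of the ILC2. The same cell held 133 UMIs of the chemokine gene Ccl3, 170 of Ccl4, 19 of the histidine decarboxylase gene Hdc and 9 of Gata2, the last 2 known from mast cells and basophils. It had 1 UMI of Ms4a2, a marker of mast cells and basophils. It had 0 UMIs of Gata3, of Rora, of the basophil gene Mcpt8 and of the mast cell gene Cpa3. Scgb1a1, a secreted product of airway club cells, had 1 to 12 UMIs in 56 of the 66 ILC2, and the 5 endothelial markers summed to 202 and 65.0 CPM in Vegfr2Y949F ILC2 and to 257 and 75.5 CPM in WT ILC2, against 6481 to 7296 CPM in endothelial cells. The part of such RNA in the results was not tested.

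**Figure D1:**
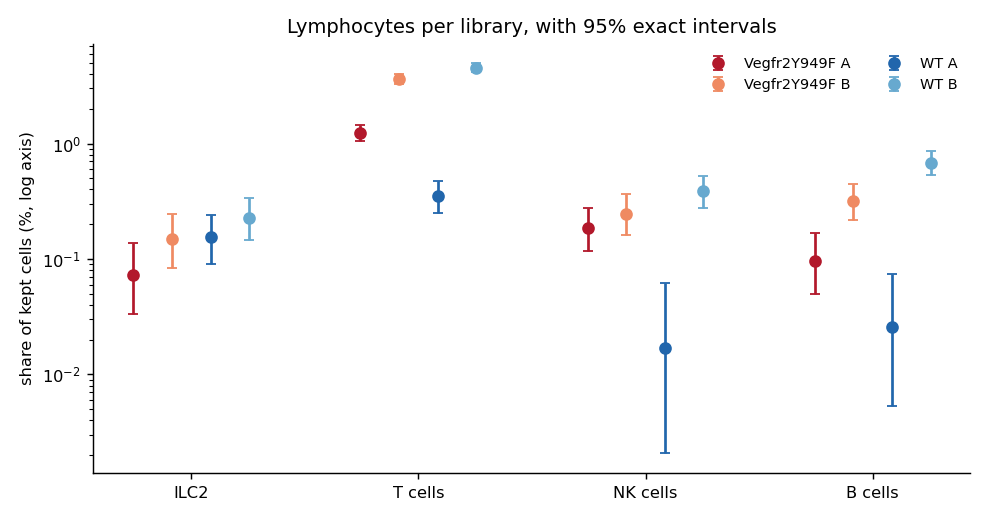
Share of kept cells (%, log axis) called ILC2, T, NK or B cells in each of the 4 libraries, with 95% exact binomial intervals that cover counting error only. The ILC2 shares of the 4 libraries lie between 0.0723% and 0.227%. Their intervals overlap except for those of Vegfr2Y949F A (up to 0.137%) and WT B (from 0.146%). T, NK and B cells of WT A lie far below those of the other libraries.

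ILC2 were rare in every lung pool, and with 2 pools per genotype the test could not decide whether their share differed. They made up 0.0723% (95% exact binomial interval 0.0331 to 0.137) and 0.148% (0.0830 to 0.245) of kept cells in the Vegfr2Y949F libraries. In the WT libraries they made up 0.154% (0.0910 to 0.243) and 0.227% (0.146 to 0.338). Both Vegfr2Y949F shares lay below both WT shares, but the intervals of Vegfr2Y949F B and WT A nearly coincided. The means were 0.110% ± 0.0537 in Vegfr2Y949F and 0.190% ± 0.0521 in WT (SD, n = 2 each), a difference of -0.0801 percentage points (two-sided exact permutation test over libraries, p = 0.333, the smallest p that 2 against 2 can give). With at least 3 of the 5 genes required, the difference turned to 0.00270 percentage points (6 and 11 ILC2 in Vegfr2Y949F, 10 and 7 in WT). The lower share in Vegfr2Y949F therefore rested on the cells with exactly 2 of the genes, which numbered 3 and 4 in Vegfr2Y949F and 8 and 17 in WT.

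Among lymphocytes, taken as the ILC2, T, NK and B cells together, ILC2 formed 4.52% and 3.42% in Vegfr2Y949F and 28.1% and 3.90% in WT (exact permutation test, p = 0.667, n = 2 each). The 28.1% belonged to WT A, the library with few T, NK and B cells. T cells were 0.350% of its kept cells, against 1.25% and 3.62% in Vegfr2Y949F and 4.53% in WT B. The ILC2 share of kept cells in WT A lay between those of the other libraries, so ILC2 did not follow the other lymphocytes there. Without WT A the difference in the lymphocyte share was 0.0712 percentage points.

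**Figure D2:**
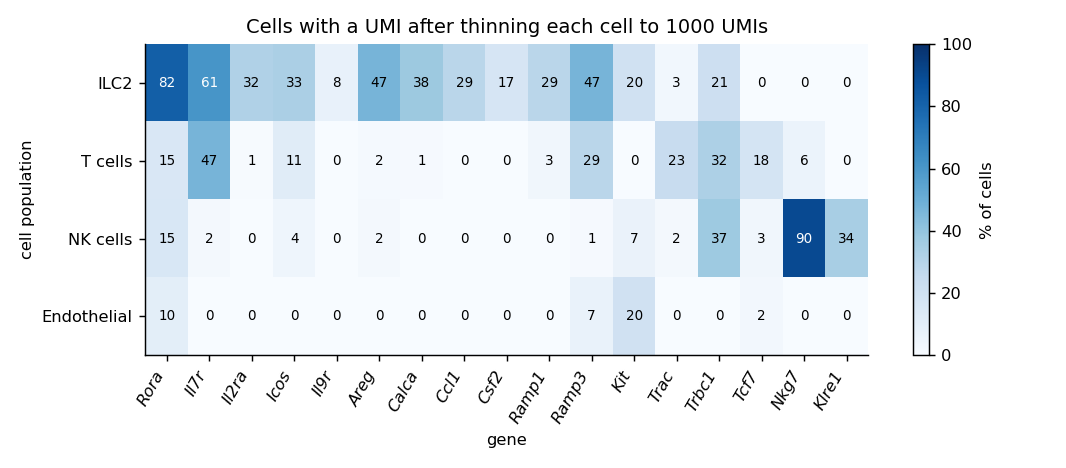
Percent of cells with at least 1 UMI of a gene after each cell was thinned at random to 1000 UMIs, for ILC2, T cells, NK cells and endothelial cells. Rora is most frequent in the ILC2 row, Areg, Calca, Ccl1 and Csf2 stand at 16.7% or more there and at 2.20% or less in the T and NK rows, and Nkg7 and Tcf7 are at 0 in the ILC2 row.

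Several genes of secreted products were detected in a large part of the ILC2 and in hardly any of the T and NK cells compared. Cells with as many of Il1rl1, Gata3, Il5, Il13 and Arg1 as the ILC2 rule asks had been left out of these T and NK cells. After thinning to 1000 UMIs, Areg (amphiregulin) was found in 47.0% of ILC2, 1.54% of T cells, 2.20% of NK cells and 0.100% of endothelial cells, a cell type taken as lacking lymphocyte genes. Ccl1, a chemokine that draws cells bearing the receptor Ccr8, was found in 28.8% of thinned ILC2 and in 0% of the others. Without thinning, Areg had a UMI in 62.1% of ILC2 and 0.631% of endothelial cells, at median depths of 4035.5 and 5267 UMIs. Calca, the gene of calcitonin gene-related peptide, was found in 37.9% of thinned ILC2, 1.15% of T cells and 0% of NK and endothelial cells. Csf2, the gene of the granulocyte-macrophage growth factor GM-CSF, was found in 16.7% of thinned ILC2 and in 0% of the other 3 cell types.

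ILC2 were a large source of a few transcripts in the whole lung sample, although they held 0.0743% of the UMIs of kept cells. They held 67.1% of all Il5 UMIs in kept cells, 47.6% of the Ccl1 UMIs, 36.4% of the Csf2 UMIs and 25.9% of the Calca UMIs. For Areg the share was 4.55%, and 844 other cells held an Areg UMI. Il5 chose the cells, so its share is a description.

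The sequences before the start sites of 4 of these genes are shown because Il5 and Il13 are the type 2 cytokine genes of the rule and Ccl1 and Areg are secreted products that were higher in ILC2 than in T and NK cells. Il13 was sparse, and ILC2 held 15.4% of its UMIs in kept cells. Of these 14 UMIs, 6 lay in the Gzmb-bearing cell of WT B. Each sequence is the 250 bases upstream of the RefSeq start on the gene's strand, in build GRCm38.p6. Capitals mark matches, on either strand, to the GATA letters AGATAA, or to the letters AGATAG, or to the letters TGATAA, or to the letters TGATAG, to the AP-1 letters TGANTCA or to the CRE letters TGACGTCA.
Il5 (chr11:53720544-53720793, plus strand): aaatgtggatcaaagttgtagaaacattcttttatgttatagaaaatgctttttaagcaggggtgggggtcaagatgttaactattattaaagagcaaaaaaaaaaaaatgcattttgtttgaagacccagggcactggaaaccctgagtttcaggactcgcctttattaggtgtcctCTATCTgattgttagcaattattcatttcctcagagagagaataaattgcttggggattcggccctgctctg
Il13 (chr11:53634703-53634952, minus strand): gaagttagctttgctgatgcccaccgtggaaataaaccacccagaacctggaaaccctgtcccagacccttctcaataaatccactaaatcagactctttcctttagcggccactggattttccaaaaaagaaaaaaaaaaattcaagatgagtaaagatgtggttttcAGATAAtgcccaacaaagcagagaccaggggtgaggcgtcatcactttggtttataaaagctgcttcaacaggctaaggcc
Ccl1 (chr11:82179813-82180062, minus strand): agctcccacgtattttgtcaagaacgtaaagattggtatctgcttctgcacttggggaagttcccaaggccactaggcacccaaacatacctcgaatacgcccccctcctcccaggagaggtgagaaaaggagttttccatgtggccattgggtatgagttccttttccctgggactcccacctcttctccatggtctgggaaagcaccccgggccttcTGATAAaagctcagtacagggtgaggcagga
Areg (chr5:91139349-91139598, plus strand): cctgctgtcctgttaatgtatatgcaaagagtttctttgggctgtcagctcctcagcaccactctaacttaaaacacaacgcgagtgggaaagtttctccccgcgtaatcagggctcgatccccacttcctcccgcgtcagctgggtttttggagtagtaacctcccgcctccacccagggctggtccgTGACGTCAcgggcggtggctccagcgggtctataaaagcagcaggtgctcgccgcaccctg
Il5, Il13 and Ccl1 each had 1 GATA match, 72, 81 and 31 bases before the start, and Areg had 1 CRE match 61 bases before it. No AP-1 match lay in these windows. Among the 32851 windows of the same length before RefSeq starts, 26.5% held a GATA match, 6.75% an AP-1 match and 1.55% a CRE match. A match describes letters and is not a measured site.

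**Figure D3:**
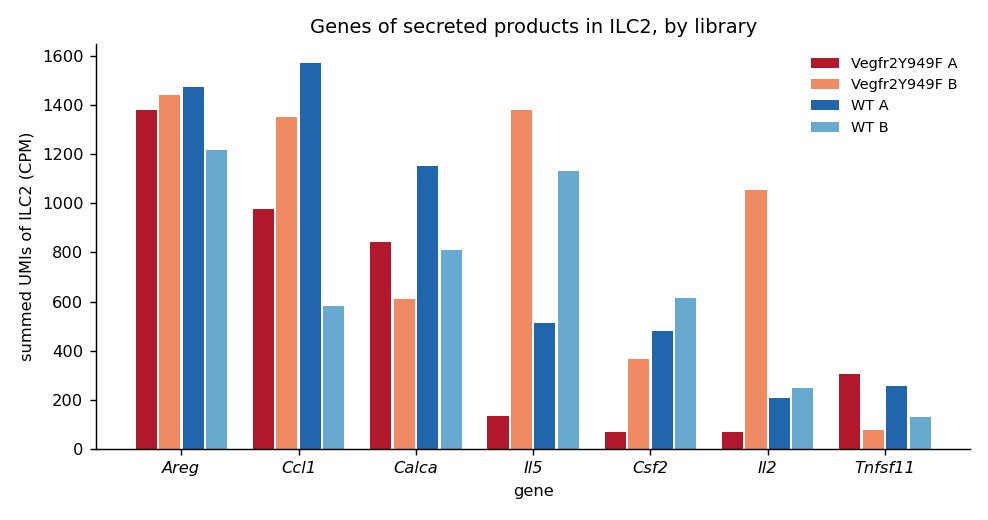
Summed UMIs of ILC2 in CPM for 7 genes of secreted products, 1 bar per library. Areg varies little between the 4 libraries, whereas Il5, Csf2 and Il2 differ severalfold between the 2 Vegfr2Y949F libraries.

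Among the rule's own effector genes, Il5 had 135 and 1379 CPM in the Vegfr2Y949F ILC2 sums (4 and 106 UMIs) and 513 and 1133 CPM in WT (32 and 105 UMIs). The genotypes overlapped, and the lowest and the highest library were both Vegfr2Y949F. Il13 had UMIs in 2 ILC2 of Vegfr2Y949F B and 2 of WT B only, with 7 UMIs in each of these libraries and 0 in the others. In WT B 6 of the 7 lay in the Gzmb-bearing cell described above, which lacked Gata3 and Rora UMIs. In Vegfr2Y949F B 6 of the 7 also lay in 1 cell. Arg1, the arginase that ILC2 are known to express in lung, stood at 371 and 104 CPM in Vegfr2Y949F and at 176 and 21.6 CPM in WT. It had a UMI in 6 of 9 and 6 of 15 Vegfr2Y949F ILC2, and in 7 of 18 and 2 of 24 WT ILC2. Il1rl1 stood at 1381 and 741 CPM in Vegfr2Y949F and at 1026 and 852 CPM in WT, and Gata3 at 741 and 897 CPM in Vegfr2Y949F and at 1331 and 809 CPM in WT, so both overlapped.

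To ask what else set ILC2 apart from the other lymphocytes of the same suspensions, UMIs were summed per library and cell type. ILC2 were compared with 1040 T cells (at least 2 of the Cd3 genes detected) and with 91 NK cells (at least 2 of Ncr1, Klrb1c, Gzma, Prf1 and Eomes detected). T and NK cells also had to have UMIs of fewer than 2 of Il1rl1, Gata3, Il5, Il13 and Arg1. T or NK cells with more of these ILC2 genes were thus not compared, and their effect on the results was not tested. Tests used the quasi-likelihood method of edgeR with the library as a block and Benjamini-Hochberg adjustment. Against T cells 1842 genes outside the rules were tested and 576 had an adjusted p under 0.05 (31.3%), 306 higher (16.6%) and 270 lower (14.7%) in ILC2. Against NK cells 977 genes were tested and 498 passed (51.0%), 238 higher (24.4%) and 260 lower (26.6%). Higher genes were 53.1% of the T cell calls and 47.8% of the NK cell calls. With DESeq2 they were 59.2% and 60.8%, and without TMM scaling factors 46.4% and 39.9%, so the balance of directions depended on the scaling. Without the haemoglobin-rich cell 577 and 477 genes passed against T and NK cells, and without the Gzmb-bearing cell 586 and 513. Of 927 genes tested in both comparisons, 130 were higher and 70 lower in ILC2 than in both other cell types.

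Ccl1 led the genes higher in ILC2 in both comparisons. It stood at 977 and 1353 CPM in Vegfr2Y949F ILC2 and at 1571 and 583 CPM in WT ILC2, and no T or NK cell of any library held a Ccl1 UMI. Set against a floor of 3 UMIs over the T cells or NK cells, Ccl1 was at least 2383-fold higher in ILC2 than in T cells and at least 108-fold higher than in NK cells (edgeR quasi-likelihood test, adjusted p = 3.1e-13 and 8.2e-08). Absent from T and NK cells, Ccl1 passed the filter on low counts only through ILC2 and could only be called higher. Its 285 UMIs came from 27 ILC2, and the cell with the most held 52. Areg stood at 1381, 1444, 1475 and 1219 CPM in the ILC2 of Vegfr2Y949F A, Vegfr2Y949F B, WT A and WT B, and at 7.38, 28.4, 5.05 and 25.2 CPM in their T cells. The ILC2 values lay far above all T cell values, with a log2 fold change of 6.17 ± 0.31 (SE, adjusted p = 1.7e-12) over T cells and 6.00 ± 0.54 (adjusted p = 9.7e-08) over NK cells. Calca stood at 842, 611, 1154 and 809 CPM in the same ILC2 and at 0, 23.4, 25.2 and 27.9 CPM in T cells, a log2 fold change of 5.39 ± 0.38 (adjusted p = 3.1e-10). All NK cells together held 6 Areg and 4 Calca UMIs. At these low T and NK cell values Areg and Calca also passed the filter only through ILC2. Like Ccl1, they could only be called higher.

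Of the 26 listed effector genes outside the rule, 6 passed the filter on low counts against T cells. Areg, Calca, Ccl1, Tnfsf11 and Furin were higher in ILC2 and Ccl5 was lower, beside 16.6% and 14.7% of all genes tested. The filter itself favoured genes that are high in 1 of the cell types, so these counts describe only the genes that passed it. A gene near 0 in 1 cell type passed only through the other, which fixed its direction, here and in the lists below. Tnfsf11, which encodes the cytokine RANKL, had a log2 fold change of 3.30 ± 0.38 over T cells (adjusted p = 5.1e-07), and Furin, a protease that matures precursor proteins, one of 3.74 ± 0.26 (adjusted p = 2.7e-10). The chemokine gene Ccl5 had 10 UMIs in all ILC2 and was lower than in T cells by a log2 fold change of -3.63 ± 0.44 (adjusted p = 7.7e-07) and than in NK cells by one of -8.72 ± 0.29 (adjusted p = 1.3e-13). Against NK cells 7 of the 26 passed the filter, with Areg, Calca, Ccl1 and Furin higher and Ccl5 and Xcl1 lower in ILC2. Among all genes tested there 24.4% were higher and 26.6% lower. Il9, Il10, Ifng and Il22, genes of cytokines made by other lymphocytes or by other states of ILC2, had 0 UMIs in the 66 cells. A count of 0 over their 261615 UMIs allows up to 11.5 CPM.

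Of the 22 listed identity genes outside the rule, 15 passed the filter against T cells. In ILC2 9 were higher and 1 lower, beside 16.6% and 14.7% of all genes tested. Rora stood at 4244, 1925, 2725 and 2234 CPM in the ILC2 of Vegfr2Y949F A, Vegfr2Y949F B, WT A and WT B, and at 124, 212, 389 and 173 CPM in their T cells (log2 fold change 3.75 ± 0.26, adjusted p = 2.9e-10). Every ILC2 sum lay above every T cell sum. The transcription factor gene Hlf had a log2 fold change of 5.25 ± 0.32, the transcriptional cofactor gene Lmo4 one of 3.65 ± 0.22, the chemokine receptor gene Cxcr6 one of 3.28 ± 0.31 and Id2, which blocks B and T lineage factors, one of 2.88 ± 0.26 (adjusted p from 2.9e-11 to 2.3e-08). Tcf7, which encodes a factor of T cells and of early ILC progenitors, had 0 UMIs in ILC2 and was at least 17.8-fold lower than in T cells (adjusted p = 9.9e-07). It passed the filter only through T cells, which fixed its direction. Il7r and Bcl11b did not pass the test, with log2 fold changes of 0.30 ± 0.21 and 0.06 ± 0.28. Against NK cells 12 identity genes passed the filter, and Rora, Il7r, Il2ra, Icos, Lmo4, Hlf and Cxcr6 were higher in ILC2 and none was lower. Among all genes tested there 24.4% were higher and 26.6% lower.

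Of 21 listed cytokine receptor genes 11 passed the filter against T cells, 3 higher and 2 lower in ILC2, beside 16.6% and 14.7% of all genes. Il2ra, which encodes the high-affinity chain for interleukin 2, was higher by a log2 fold change of 4.63 ± 0.29 (adjusted p = 5.4e-11), Il9r by 6.61 ± 0.70 (adjusted p = 1.4e-07) and Il10ra by 3.89 ± 0.43 (adjusted p = 2.3e-07). Ifngr1 and Tgfbr2, receptor chains for interferon gamma and transforming growth factor beta, were lower, by -0.63 ± 0.23 and -1.52 ± 0.34 (adjusted p = 0.044 and 0.0014). Il9r had 26 UMIs in 21 ILC2 and 6 UMIs in all T cells, so it passed the filter only through ILC2, which fixed its direction. No ILC2 had a UMI of the ligand gene Il9. Among 7 receptor genes tested against NK cells, 6 passed beside 51.0% of all genes. Il7r and Il2ra were higher and Il2rb, Il18rap, Ifngr1 and Ifnar1 were lower in ILC2.

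Ramp1 and Ramp3, whose products pair with the calcitonin receptor-like receptor that senses calcitonin gene-related peptide, were the 2 genes of 16 listed neuropeptide and lipid mediator receptors that passed the filter. Both were higher in ILC2 than in T cells, Ramp1 by a log2 fold change of 3.29 ± 0.32 (adjusted p = 3.2e-08) and Ramp3 by 1.28 ± 0.22 (adjusted p = 7.1e-05), beside 16.6% of all genes tested. Both were also higher than in NK cells, beside 24.4% of all genes tested there. With 2 and 5 UMIs in all NK cells, Ramp1 and Ramp3 passed that filter only through ILC2, which fixed their direction. Ramp1 stood at 303 and 260 CPM in Vegfr2Y949F ILC2 and at 240 and 270 CPM in WT ILC2. The partner gene Calcrl had a UMI in 1.52% of thinned ILC2 and 72.0% of thinned endothelial cells (15.2% and 95.2% unthinned), so no expression in ILC2 was read from it. Ptgdr2, the prostaglandin D2 receptor gene often used to mark human ILC2, had 0 UMIs.

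Homing genes differed in both directions between ILC2 and T cells. Of 19 listed genes 12 passed the filter, with 5 higher and 4 lower in ILC2, beside 16.6% and 14.7% of all genes tested. Ccr2, Cxcr6, Itgb7, Cd69 and Cd44 were higher while Ccr7, S1pr1 and Selplg were among those lower. S1pr1, which serves exit from tissue, had a log2 fold change of -3.80 ± 0.47 (adjusted p = 1.0e-06). Ccr7, which guides cells to lymph nodes, had 7 UMIs in ILC2, all in Vegfr2Y949F B. Cd69, whose product retains lymphocytes in tissue by binding the S1pr1 receptor, stood at 977, 611, 545 and 421 CPM in the ILC2 of Vegfr2Y949F A, Vegfr2Y949F B, WT A and WT B, and at 173, 133, 156 and 146 CPM in their T cells. The 2 cell types did not overlap (log2 fold change 2.08 ± 0.23, adjusted p = 3.0e-07). Against NK cells Cxcr6, Cd69 and Cd44 were higher and Itga4, Itgal and Selplg were among those lower. Of 10 genes that passed the filter there 3 were higher and 4 lower, beside 24.4% and 26.6% of all genes.

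Among 19 listed checkpoint and costimulatory genes, 8 passed the filter against T cells. All 8 were called, 5 higher and 3 lower, beside 16.6% and 14.7% of all genes tested. Tnfrsf18 (the costimulatory receptor GITR), Icos and the cytokine signalling inhibitors Cish, Socs1 and Socs2 were higher in ILC2. Cish had a log2 fold change of 3.89 ± 0.32 (adjusted p = 4.4e-09). The receptor genes Ctla4 and Cd28 and the inhibitor Socs3 were lower, with 1 UMI of Ctla4 and 2 of Cd28 in all ILC2. Ctla4 and Cd28 thus passed the filter only through T cells, which fixed their direction. Of the 8 genes called, Tnfrsf18, Icos and Cish were also higher than in NK cells, beside 24.4% of all genes tested there.

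**Figure D4:**
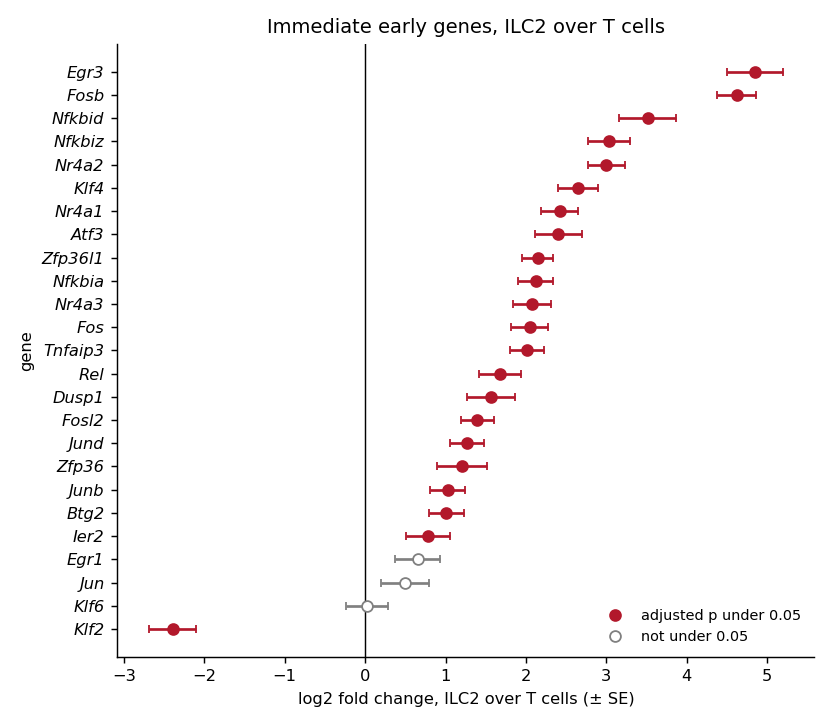
Log2 fold change of 25 immediate early genes in ILC2 over T cells, with standard errors from the edgeR fit over all genes. Filled points pass an adjusted p under 0.05: 21 genes lie to the right of 0 and Klf2 lies to the left.

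Immediate early genes, which cells transcribe within minutes of a stimulus, were mostly higher in ILC2. Of 28 listed genes 25 passed the filter against T cells. In ILC2 21 were higher and 1 lower, beside 16.6% and 14.7% of all genes tested. Their median log2 fold change was 2.02, against -0.11 over all genes tested. Fosb, a subunit of the AP-1 transcription factor, stood at 1651, 2510, 3431 and 1327 CPM in the ILC2 of Vegfr2Y949F A, Vegfr2Y949F B, WT A and WT B and at 113, 78.2, 121 and 61.5 CPM in their T cells. The lowest ILC2 value was more than 10 times the highest T cell value (log2 fold change 4.62 ± 0.24, adjusted p = 2.9e-12). Egr3 had a log2 fold change of 4.85 ± 0.35 (adjusted p = 3.6e-10) and the NF-kB regulator gene Nfkbid with 3.51 ± 0.36 (adjusted p = 7.1e-08). The exception was Klf2, a factor of quiescent circulating lymphocytes that drives S1pr1, with a log2 fold change of -2.40 ± 0.29 (adjusted p = 1.1e-06). Against NK cells 16 of 25 were higher, and Dusp2 and Klf2 were lower, beside 24.4% and 26.6% of all genes tested. Fosb was also common in endothelial cells of these libraries (47.4% of thinned cells, against 78.8% of thinned ILC2 and 5.67% of thinned T cells).

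Heat shock genes went the other way against T cells. Of 12 listed genes 10 passed the filter, and Hspa1a, Hspa1b, Hspd1, Hsp90aa1 and Dnajb1 were lower in ILC2 while none was higher. Among all genes tested 14.7% were lower and 16.6% higher. Hspa1a stood at 67.4, 26.0, 64.1 and 75.5 CPM in the ILC2 of Vegfr2Y949F A, Vegfr2Y949F B, WT A and WT B and at 165, 918, 95.9 and 1087 CPM in their T cells. All T cell values lay above all ILC2 values, and the T cell values of both B libraries were several times those of both A libraries (log2 fold change -3.36 ± 0.47, adjusted p = 6.0e-06). Against NK cells 6 heat shock genes were tested, and Hspa8 was higher in ILC2, beside 24.4% of all genes tested.

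Genes of arginine and polyamine handling, of the hypoxia response and of the interferon response gave few calls. Of 16 arginine and polyamine genes 7 were tested against T cells, and the amino acid transporter gene Slc3a2 was higher and Oat lower. Of 25 hypoxia response genes 8 were tested, and Ldha, which encodes lactate dehydrogenase, was higher, by a log2 fold change of 0.90 ± 0.23 over T cells and 1.62 ± 0.34 over NK cells (adjusted p = 0.0039 and 0.00065). Hif1a and Gpi1 were higher than in NK cells as well. Against T cells the shares called, 1 of 8 for hypoxia genes and 2 of 7 for arginine genes, lay at or below the 31.3% of all genes. The interferon-induced gene Ifi27l2a was lower than in T cells, with 1 UMI in all ILC2 (log2 fold change -6.81 ± 0.58, adjusted p = 5.3e-09). Ifi27l2a passed the filter only through T cells, which fixed its direction. Of the 8 cell cycle genes only Pcna was tested, and it was lower (log2 fold change -2.14 ± 0.36, adjusted p = 6.5e-05), while Mki67 had 0 and Top2a 5 UMIs in all ILC2.

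The largest changes outside the lists named further genes. Ccdc184, with 83 UMIs in ILC2 and 0 in T and NK cells, was at least 694-fold higher than in T cells and at least 31.5-fold higher than in NK cells. Hs3st1, which encodes a heparan sulfate sulfotransferase, had a log2 fold change of 8.75 ± 0.40 over T cells (adjusted p = 3.5e-13), and the neutral amino acid transporter gene Slc7a8 one of 8.52 ± 0.49 (adjusted p = 1.3e-11). Outside lymphocytes neither was specific, since ILC2 held 1.58% of the Hs3st1 UMIs and 7.25% of the Slc7a8 UMIs of all kept cells. Genes with 0 UMIs in ILC2 led the other direction. Lef1, Ms4a4b and Gimap4 were at least 46.1-fold, 48.8-fold and 25.9-fold lower than in T cells, and Nkg7, Irf8 and Klra4 at least 267-fold, 207-fold and 77.5-fold lower than in NK cells. The call of each of these genes held under every alternative in which it could be tested. Genes at 0 in a compared cell type, Ccdc184 included, passed the filter only through the other cell type, which fixed their direction. The same held against T cells for Hs3st1 and Slc7a8, with 8 and 4 UMIs in all T cells.

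The genotypes were compared within ILC2 on the 4 sums, with edgeR's quasi-likelihood test and no block. Of 861 genes tested, 0 passed an adjusted p under 0.05 (0%), the smallest adjusted p was 0.998, and 30 had an unadjusted p under 0.05 (3.48%). DESeq2 likewise called 0, with 3 genes under an unadjusted 0.05. With 1 library left out, 5 genes passed without Vegfr2Y949F A, 3 without Vegfr2Y949F B, 13 without WT A and 5 without WT B. The 5 were in both cases 4 haemoglobin genes and a copy of Ccl21a, with 90.4% to 100% of their UMIs in 1 Vegfr2Y949F B cell each. The 13 were these and 8 others, among them Gzmb, Ccl3 and Ccl4, with 48.6% to 100% of their UMIs in 1 cell. The 3 were Junb, Wdr89 and Fth1. The Vegfr2Y949F A sum held 9 cells, under the minimum of 10 planned for this test, which was run all the same. A p that misses the threshold with so few cells does not show that the genotypes were alike. For Areg, at 1381 and 1444 CPM in Vegfr2Y949F and 1475 and 1219 CPM in WT, the log2 fold change was 0.16 ± 0.37 (SE). For Ccl1 it was 0.24 ± 0.48 and for Calca -0.37 ± 0.44, and for all 3 genes the genotypes overlapped.

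**Figure D5:**
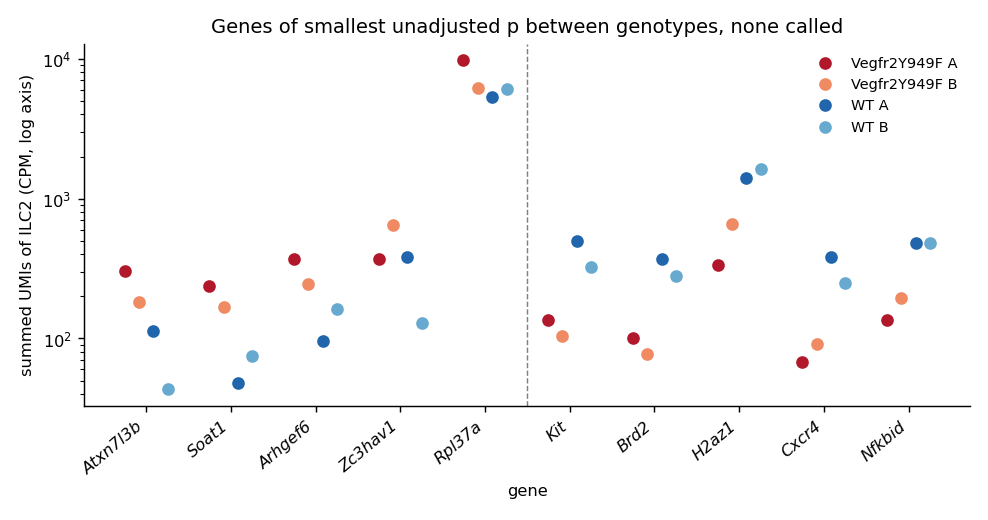
Summed UMIs of ILC2 in CPM (log axis) by library for the 5 genes of smallest unadjusted p in each direction, left of the dashed line with positive and right of it with negative log2 fold changes of Vegfr2Y949F over WT. For Zc3hav1 the genotypes overlap and for the other 9 they do not, and no gene passed the adjusted test.

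The genes of smallest unadjusted p are given as values that did not pass. Kit, the receptor for stem cell factor, stood at 135 and 104 CPM in Vegfr2Y949F ILC2 and at 497 and 324 CPM in WT ILC2 (log2 fold change -1.71 ± 0.49, adjusted p = 0.998, edgeR). Both Vegfr2Y949F values lay below both WT values, and Kit had UMIs in 3 of 9, 5 of 15, 13 of 18 and 14 of 24 cells of the Vegfr2Y949F A, Vegfr2Y949F B, WT A and WT B libraries. Endothelial cells also held Kit, in 19.6% of thinned cells against 19.7% of thinned ILC2 and 0.288% of T cells, and the part of other cells' RNA in these values was not tested. Kit lies at 75574916-75656722 on chromosome 5, near Kdr, the gene of Vegfr2, at 75932827-75978458. Whether this location bears on the Kit values was not tested. The chemokine receptor gene Cxcr4 stood at 67.4 and 91.0 CPM in Vegfr2Y949F and at 385 and 248 CPM in WT (log2 fold change -1.78 ± 0.56). Of its 56 UMIs, 14 came from 1 WT A cell. Nfkbid stood at 135 and 195 CPM in Vegfr2Y949F and at 481 and 486 CPM in WT (-1.37 ± 0.44), and the histone variant gene H2az1 at 337 and 663 CPM in Vegfr2Y949F and at 1411 and 1640 CPM in WT (-1.45 ± 0.45). The bromodomain gene Brd2 had a log2 fold change of -1.79 ± 0.54. For each of these 5 genes both Vegfr2Y949F values lay below both WT values. That alone makes each lower within set A and within set B, so the sets add no further observation. In the other direction Atxn7l3b, Soat1, Arhgef6, Zc3hav1 and Rpl37a had log2 fold changes of 1.70, 1.66, 1.22, 1.21 and 0.54, and Zc3hav1 was higher in set B (2.24) but not in set A (-0.05).

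Groups that did not overlap were common among all genes of this comparison. Of the 861 genes 274 had non-overlapping genotypes (31.8%), 98 with both Vegfr2Y949F sums above both WT sums (11.4%) and 176 with both below (20.4%). Of 24 immediate early genes that passed the filter, 8 did not overlap, 2 above and 6 below, and 20 of the 24 had a negative log2 fold change, with a median of -0.27 against -0.00 over all genes. Ier2 and Junb were among the 6. Ier2 stood at 101 and 455 CPM in Vegfr2Y949F and 689 and 809 CPM in WT (log2 fold change -1.16 ± 0.54). Junb stood at 1314 and 3525 CPM in Vegfr2Y949F and at 4104 and 4424 CPM in WT (-0.68 ± 0.37). For both genes Vegfr2Y949F A, the library with the fewest cells, was the lowest. Of the 14 identity genes tested 6 did not overlap, 3 in each direction.

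Cytokine genes varied widely between pools of 1 genotype. Il2, which ILC2 can make, stood at 67.4 and 1054 CPM in Vegfr2Y949F and at 208 and 248 CPM in WT (log2 fold change 1.56 ± 0.70), so the genotypes overlapped. The 1054 CPM came largely from 1 cell, which held 76 of the 119 Il2 UMIs, and without Vegfr2Y949F B the log2 fold change was -1.74. Csf2 stood at 67.4 and 364 CPM in Vegfr2Y949F and at 481 and 615 CPM in WT (-1.02 ± 0.54), from 20 cells, 1 of which held 33 of its 117 UMIs. Both Vegfr2Y949F values lay below both WT values, and with 1 library left out the log2 fold change ran from -3.00 to -0.43.

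Whether a genotype difference in ILC2 differed from that in T cells was tested as an interaction. Of 2571 genes tested 1 passed (0.0389%), the granzyme gene Gzmb, whose 47 ILC2 UMIs all came from the single WT B cell described above. Without that cell 0 genes passed, with 92 under an unadjusted p of 0.05. DESeq2 called 0, with 40 under an unadjusted p of 0.05.

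The upstream signals of ILC2 were looked for in the remaining kept cells. Il33, the ligand of the Il1rl1 receptor, stood at 2.57 and 4.60 CPM in Vegfr2Y949F and at 3.16 and 6.06 CPM in WT. Tslp, another epithelial and stromal alarm cytokine, stood at 9.06 and 13.4 CPM in Vegfr2Y949F and at 9.25 and 10.1 CPM in WT. Both overlapped between genotypes, and Il25 had 0 UMIs in every library.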

How the data were processed

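The authors deposited filtered gene-by-barcode tables of raw UMI counts, made with Cell Ranger 6.1.1 per the file headers. The submitters' processing notes also name fastp, UMI-tools, Seurat 4.1.0 and the build mm10, without their roles. Barcodes with at least 500 genes, at least 1000 UMIs and under 15% mitochondrial UMIs were kept, and no doublet caller was run. UMIs were summed per library and cell type. edgeR 4.0.16 (R 4.3.3; TMM, filterByExpr, quasi-likelihood test, Benjamini-Hochberg adjustment) gave the tests, with the library as a block between cell types and no block between genotypes, and DESeq2 1.42.0 was an alternative. The edgeR step was tested on simulated counts. Genes of the rules that chose cells were left out of the calls. Cells were clustered with scanpy 1.11.5. CPM are shares of the summed UMIs. Intervals and floors of 3 UMIs cover counting error only.

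The cells, gene lists and tests were chosen with earlier results of these data known. Text names genes of the lists, the 12 genes with the largest log2 fold change each way among those called, changed alike in 4 of 4 libraries and at 50 CPM or more in the higher cell type, and, where fewer than 5 genes passed, the 5 of smallest p each way. Alternatives covered normalization, filter, left-out libraries, block, thinning and stricter cell rules. Libraries held 83606389 to 96521589 UMIs. Some genes of the lists are not reported here.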

Additional observations from a re-analysis of the deposited data

Results flagged for a closer look

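Gzmb was the gene whose genotype difference in ILC2 differed from that in T cells by the interaction test over all genes (log2 difference -15.1, edgeR quasi-likelihood test, adjusted p = 2.4e-08). The ILC2 held 0 and 0 Gzmb UMIs in Vegfr2Y949F and 0 and 47 UMIs in WT, against 9 and 593 UMIs in Vegfr2Y949F T cells and 0 and 44 UMIs in WT T cells. The fitted size depends on the prior count, since 3 of the 4 ILC2 sums were 0. All 47 UMIs lay in 1 WT B cell, and without it the gene was not called.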

How the results depend on the processing

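The genotype comparison called 0 genes, 11 with no filter (haemoglobin genes, Ccl21a, Gzmb, Ccl3 and others with 51.0% to 100% of their UMIs in 1 cell), 3 to 13 when 1 library was left out (the lone library was then assumed to vary like the others) and 1, H2az1, with at least 3 of the 5 genes required (log2 fold change -2.09, adjusted p = 0.019, edgeR). It called 0 without the haemoglobin-rich cell, 0 without the Gzmb-bearing cell and 0 with the set letter as a replicate block (35 genes under an unadjusted p of 0.05). Same-lettered libraries deviated together with a correlation of 0.213 over 866 genes, but there were 2 pairs, and the meaning of the letter is not given. Without the library block 526 genes passed against T cells and 494 against NK cells. Against T cells 1121 genes passed with no filter and 130 with cells thinned, and against NK cells 164 with cells thinned, where fewer genes were tested. Leaving out 1 library gave 464 to 756 calls against T cells and 351 to 526 against NK cells. The interaction test called 0 genes with DESeq2, 3 without TMM, 7 with no filter, 0 without the Gzmb-bearing cell and 1 to 6 with 1 library left out. The difference in the ILC2 share was 0.00270 percentage points with at least 3 genes required, and -0.118 to -0.0421 with 1 library left out. In the lymphocyte share it was -24.2 to 0.0712 with 1 library left out. Log2 genotype differences that passed no test changed sign as follows, and the cause was not tested. For Il5 the value was -0.00518 with DESeq2, -0.30 with the replicate block, -0.69 with at least 3 genes required and -0.13 over the whole cluster. Over the whole cluster it was -0.0160 for Areg and -0.15 for Il7r, for which it was -0.0589 with no filter. It was -0.0178 for Rora without cells holding other lineages' UMIs and -0.15 for Ccl1 with at least 3 genes required. With 1 library left out the values ran from -0.17 to 0.56 for Il1rl1, -0.59 to 0.0580 for Gata3, -2.61 to 0.89 for Il5, -0.20 to 0.78 for Rora, -0.23 to 0.49 for Il7r, -1.74 to 2.35 for Il2, -3.00 to -0.43 for Csf2, which kept its sign, and -0.32 to 1.04 for Ccl1. The 24 genes of largest change against T cells and the 24 against NK cells kept their calls in each alternative that tested them. Single-gene alternatives were not run for the other genes named from the lists. With cells thinned, 73 of the 306 higher and 42 of the 270 lower calls against T cells were shared. The 9 cells of Vegfr2Y949F A and the 2 NK cells of WT A limit precision.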
